A study of Rattus norvegicus with 6 samples.

Results

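Quantitative PCR reads a transcript against a reference gene whose level is taken to be the same in every sample. The 5 genes described here are used as such references in many tissues: Actb, B2m, Ppia, Tbp and Ywhaz. They were chosen by their Ensembl identifiers in the rat annotation of Rnor_6.0 (ENSRNOG00000034254 for Actb, ENSRNOG00000017123 for B2m, ENSRNOG00000027864 for Ppia, ENSRNOG00000001489 for Tbp and ENSRNOG00000008195 for Ywhaz), and they are 5 of the 22250 genes that each count table lists. Their counts were read in 6 libraries of total RNA from BRIN-BD11 cells, an insulin-secreting rat beta cell line made by fusing RINm5F cells with islet cells of the NEDH rat. All libraries came from cells at passage 25. The 3 controls, labelled WT, had no histone deacetylase inhibitor, and the study names DMSO as their treatment, at a lower concentration than the labels give for MS-275. The 3 treated libraries came from cells given 5 µM MS-275 (entinostat), carried in 0.1% DMSO, for 16 h. If the stated vehicles hold, the inhibitor and the added DMSO cannot be told apart. The comparison asks which references kept their level under the inhibitor. For its own qPCR in these cells the study used Gapdh for some targets and ribosomal 18S RNA for others. Neither is analysed here, because the count tables list identifiers without gene names.

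Class I histone deacetylases take acetyl groups off histone tails, and their inhibition with MS-275 changes the transcription of many genes in either direction. Each of the 5 belongs to another process of the cell. Actb encodes beta-actin, a building block of the cytoskeleton. B2m encodes beta-2-microglobulin, the light chain of major histocompatibility complex class I molecules at the cell surface. Ppia encodes cyclophilin A, a peptidyl-prolyl isomerase that helps proteins fold. Tbp encodes the TATA-binding protein, which RNA polymerases need to start transcription. Ywhaz encodes 14-3-3 zeta, an adaptor that binds phosphorylated proteins.

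The depth was 7700713 counts on genes in control replicate 1, 7982477 in replicate 2 and 5692971 in replicate 3. In the MS-275-treated replicates, in the same order, it was 5536188, 5230555 and 9172422. The 5 genes together took between 0.205% and 0.273% of these counts. Values are given in CPM, counts relative to the library total scaled by edgeR's TMM method, and changes as the log2 fold change of MS-275 over control from edgeR's quasi-likelihood test. A log2 fold change of 1 is about 1 cycle of an ideal qPCR. Nothing in the labels says whether the replicates were separate cultures, so the p-values measure the spread between these libraries, which may be technical. The labels name no batch. In bulk RNA read relative to library totals, fewer cells holding a transcript and less of it per cell cannot be told apart, and a change of the total RNA of a cell is not seen.

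With MS-275, B2m rose 2.66-fold, Tbp fell to 0.670 and Ywhaz to 0.752 of the control level, and neither Actb nor Ppia passed the test. Thus 3 of the 5 genes were called at an adjusted p under 0.05, 1 higher and 2 lower. Of all 12596 genes tested, 63.6% were called under this rule, 32.1% higher and 31.5% lower. The share among the references, 60%, was therefore near that of the genes at large. The median absolute log2 fold change was 0.41 over the 5 references and 0.46 over all tested genes. In 3 of the 5 genes the values of the groups did not overlap, which was the case in 68.1% of all tested genes. At an added threshold of 1 on the absolute log2 fold change, B2m was the 1 reference called, against 19.1% of all tested genes (13.9% higher and 5.16% lower).

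**Figure D1:**
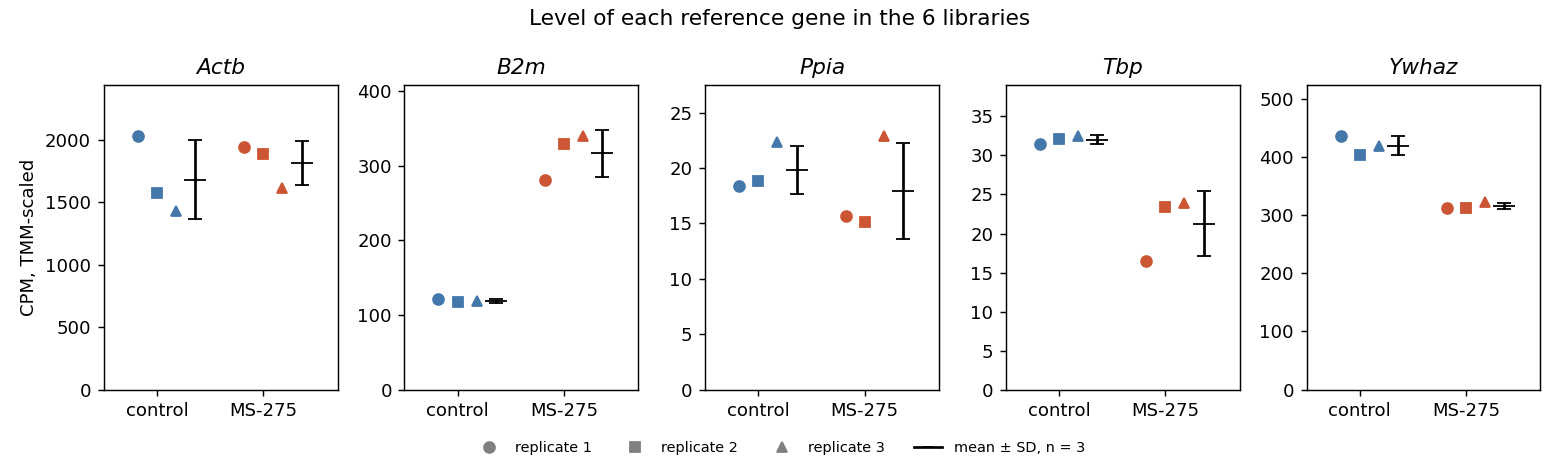
Level of each reference gene in CPM (TMM-scaled, linear axes from 0) in the 3 control and the 3 MS-275 libraries, with the mean ± SD (n = 3) beside the points. The groups part for B2m, Tbp and Ywhaz and overlap for Actb and Ppia, where control replicate 1 and MS-275 replicate 3 respectively are the highest libraries.

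B2m showed the largest change of the 5. The controls held 969, 950 and 684 counts of B2m and the treated libraries 1518, 1674 and 3041. In CPM these were 122, 117 and 118 in the controls against 280, 328 and 340 with MS-275. The lowest treated library was thus more than double the highest control, and the controls lay close together. The SD of the controls was 2.22% of the mean. Counting error alone is 3.82% in control replicate 3, so the closeness is below what counting error gives and does not measure a small spread. The mean was 119 ± 2.65 CPM (SD, n = 3) in the controls and 316 ± 31.6 CPM (SD, n = 3) with MS-275. The log2 fold change was 1.41 (standard error 0.09, 95% interval 1.23 to 1.59, Benjamini-Hochberg adjusted p = 3.41e-09, edgeR). Of all tested genes, 9.17% had a higher log2 fold change. An exact permutation test cannot go below p = 0.1 (two-sided) with 3 libraries a group, and B2m reached it.

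B2m is known as a gene that interferons and inflammatory signals can induce, and the DNA just upstream of its start is shown because it is the reference that moved most. The sequence holds the 250 bases before the gene's start, from RefSeq's rat assembly GRCr8 at chr3:129549080-129549329 on the plus strand. GRCr8 is not the assembly on which the reads were counted. Capitals mark matches to the letters of 4 motifs, searched on both strands, and a position is that of a match's first base, with -1 the base just before the start.

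B2m: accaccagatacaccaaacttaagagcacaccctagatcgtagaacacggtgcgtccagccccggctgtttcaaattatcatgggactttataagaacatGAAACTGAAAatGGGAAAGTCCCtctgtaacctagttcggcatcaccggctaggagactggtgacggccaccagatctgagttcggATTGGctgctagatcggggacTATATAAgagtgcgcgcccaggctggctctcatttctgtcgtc

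The first capitals match the interferon-stimulated response element, searched as GAAA, any 2 letters and GAAA again, at -150 from the start. Of 33469 promoter windows of the same length, 3.41% hold these letters. The motifs were picked after this sequence was seen, so the shares given here do not measure how unusual a match in B2m is. The next run matches the loose letters of an NF-kB site (GGG, any 5 letters and CC) at -138 on the plus strand and, overlapping it, at -137 on the minus strand. A match to these letters, overlapping or not, is found in 42.3% of the windows. A CCAAT box (CCAAT) lies on the minus strand at -64, and 34.0% of the windows hold one. Letters of a TATA box (TATANAA) are found at -43, against 11.6% of the windows. The GC box (GGGCGG), held by 30.5%, is not in this window. The window of RefSeq's Ppia, which may not be the copy counted in the row listed for Ppia, also holds a TATA box, at -31, and the overlapping pair of NF-kB letters, at -50 and -49, along with 3 GC boxes. That of Tbp holds 1 GC box and no other match. Neither holds the response element or CCAAT, and Actb and Ywhaz have no window here. A match is a run of letters, and no binding was measured.

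Tbp fell with MS-275. Its counts were 250, 261 and 188 in the controls and 89, 119 and 214 in the treated libraries. In CPM the controls gave 31.5, 32.1 and 32.5, and the MS-275-treated libraries 16.4, 23.3 and 23.9. All 3 treated libraries were below all 3 controls, and MS-275 replicate 1 was the lowest by a wide gap. The means were 32.0 ± 0.541 CPM in the controls and 21.2 ± 4.16 CPM with MS-275 (SD, n = 3 each). The SD of the controls was 1.69% of the mean, below the counting error alone of 6.19% in control replicate 2, the library with the most counts of Tbp. The log2 fold change of Tbp was -0.58 (standard error 0.14, 95% interval -0.87 to -0.28, adjusted p = 0.00181, edgeR). It was -0.43 without MS-275 replicate 1 and -0.69 without MS-275 replicate 3, and the call held in each of these fits. In RefSeq's annotation of GRCr8, Tbp overlaps the gene Psmb1, a proteasome subunit. The tables put alignments aside that fall on several genes, 0.172% to 0.178% of a control library and 0.182% to 0.216% of a treated library. The groups did not overlap, and the part of these alignments in the Tbp counts was not tested.

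Ywhaz fell by a smaller amount with less spread. Its counts were 3468, 3275 and 2422 in the controls and 1690, 1592 and 2878 with MS-275. These were 436, 402 and 419 CPM in the controls against 312, 312 and 322 CPM in the treated libraries. The groups did not overlap, and the SD within a group was 4.04% of the mean in the controls and 1.74% with MS-275. The means were 419 ± 16.9 CPM and 315 ± 5.49 CPM (SD, n = 3 each). The log2 fold change of Ywhaz was -0.41 (standard error 0.07, 95% interval -0.56 to -0.26, adjusted p = 0.000128, edgeR). Its biological coefficient of variation in the fit, 0.0681, was lower than that of all but 2.70% of the tested genes. Ywhaz is thus a gene whose replicates were among the most alike while its level differed between the groups.

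Actb did not pass the test. Its counts were 16178, 12858 and 8261 in the controls and 10535, 9641 and 14469 with MS-275. In CPM the controls gave 2035, 1580 and 1430, and the MS-275-treated libraries 1946, 1891 and 1618. The groups overlapped, and control replicate 1 was the highest of all 6 libraries. The means were 1682 ± 315 CPM in the controls and 1818 ± 176 CPM with MS-275 (SD, n = 3 each). The log2 fold change of Actb was 0.11 (standard error 0.12, 95% interval -0.14 to 0.36, adjusted p = 0.417, edgeR). This call rested on control replicate 1. Without that library the log2 fold change was 0.28 with an adjusted p of 0.0222 in the same test. Counting error alone is at most 1.10% of the level of Actb in a library, against an SD of 18.8% of the mean among the controls.

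Ppia did not pass the test either, at a far lower depth. Its counts were 146, 153 and 129 in the controls and 85, 77 and 205 with MS-275. In CPM the controls gave 18.4, 18.8 and 22.3, and the treated libraries 15.7, 15.1 and 22.9. MS-275 replicates 1 and 2 were below every control, whereas MS-275 replicate 3 was above every control. The means were 19.8 ± 2.17 CPM in the controls and 17.9 ± 4.35 CPM with MS-275 (SD, n = 3 each). The log2 fold change of Ppia was -0.11 (standard error 0.17, 95% interval -0.47 to 0.25, adjusted p = 0.598, edgeR). Without MS-275 replicate 3 it was -0.35, with an adjusted p of 0.0660, and without MS-275 replicate 2 it was 0.00.

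The level of the row listed for Ppia goes against its label, since cyclophilin A mRNA is known as abundant in cultured cells and this row holds at most 205 counts in a library. RefSeq's annotation of GRCr8 names 15 pseudogenes after Ppia, 10 after Actb, 2 after Ywhaz and 0 after B2m or Tbp. The count tables set alignments to more than 1 place aside. These made up 8.04% ± 0.130 of the alignments in the controls and 8.89% ± 0.264 with MS-275 (SD, n = 3 each), and the groups did not overlap. Which genes these alignments come from was not tested, nor whether this row is the functional gene or another copy. The values given for Ppia, in ratios and scalings too, are therefore those of the reads placed on this row.

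A p above the threshold does not show that a gene kept its level, so the 95% intervals were set against a limit of 0.5 on the log2 scale in either direction. The intervals of Actb and Ppia lay inside the limit and those of B2m, Tbp and Ywhaz did not. Of all tested genes, 26.4% had an interval inside it, and of the 2558 genes averaging 100 CPM or more, 44.6%. Under upper-quartile scaling in place of TMM, the interval of Ywhaz reached -0.47 and lay inside the limit. Under library sizes alone, that of Ppia reached -0.53 and did not. With each library left out in turn, the bound of Actb farthest from 0 stayed between 0.26 and 0.48. That of Ppia reached -0.56 without control replicate 1, -0.57 without control replicate 2 and -0.70 without MS-275 replicate 3. At a limit of 0.25, none of the 5 intervals lay inside.

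**Figure D2:**
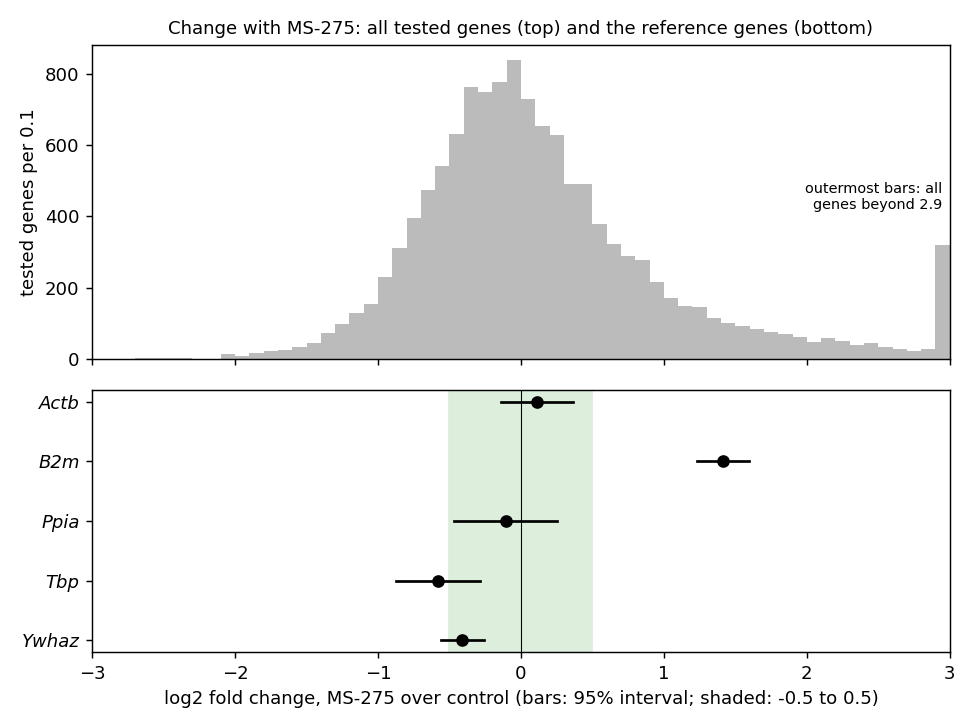
Top, number of the 12596 tested genes by log2 fold change of MS-275 over control, in steps of 0.1, with genes beyond 2.9 in the outermost bars. Bottom, log2 fold change of each reference gene (point) with its 95% interval (bar), and the limit of -0.5 to 0.5 shaded: Actb and Ppia lie inside, Ywhaz reaches past it at -0.56, Tbp at -0.87, and B2m lies beyond it at 1.41.

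A ratio of 2 genes within a library does not depend on how libraries are scaled, and is the quantity that qPCR with a reference reads. Of the 10 pairs among the 5 genes, the ratios of 6 did not overlap between the groups. This share, 60%, was near that of all pairs among the 12501 tested genes with a count in every library, 67.9%, and below that of pairs among the 2558 genes averaging 100 CPM or more, 73.7%. The count is therefore not a result about the references as a group. In exact permutation tests (two-sided, over 10 pairs) each of these 6 reached 0.1, the lowest p this design can give, and the other 4 lay between 0.2 and 0.5. All 4 pairs with B2m were among the 6, and these share the change of B2m itself. B2m rose 4.05-fold against Tbp, 3.52-fold against Ywhaz, 2.98-fold against Ppia and 2.43-fold against Actb. The ratio of B2m to Ywhaz changed by 1.82 on the log2 scale, with an SD within groups of 0.0963. The ratio of Actb to Tbp rose by 0.74 and that of Actb to Ywhaz by 0.53, with an SD within groups of 0.355 and 0.199. Tbp and Ywhaz were both lower with MS-275. The log2 ratio of Tbp to Ywhaz was -3.71 ± 0.0750 in the controls and -3.91 ± 0.290 with MS-275 (SD, n = 3 each), a difference of -0.20 that was within the spread between replicates and was -0.04 without MS-275 replicate 1.

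**Figure D3:**
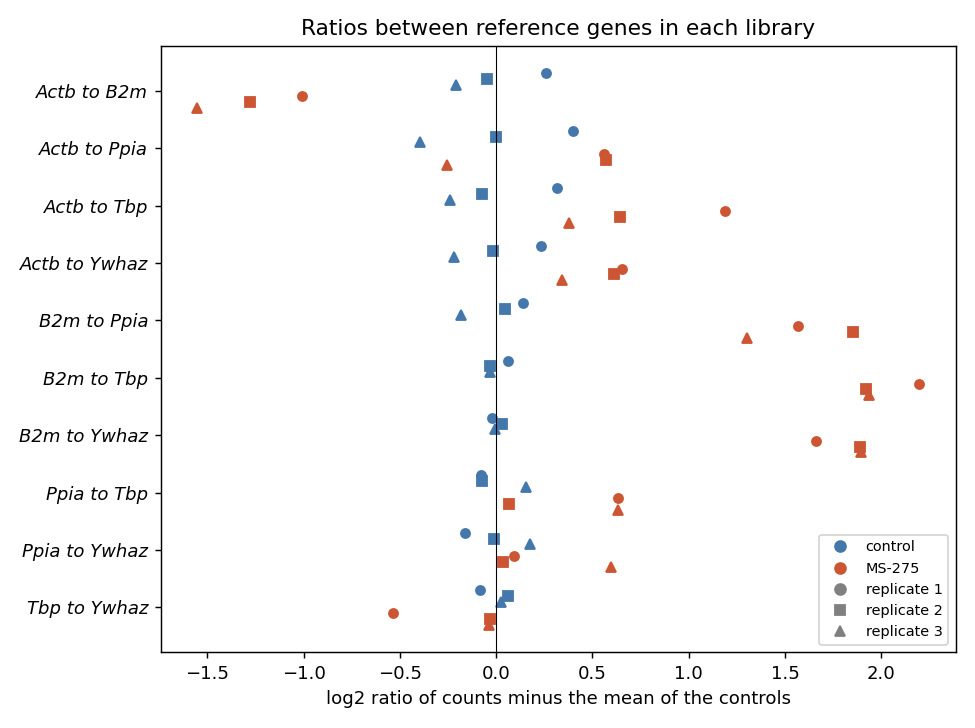
Log2 ratio of the counts of each pair of reference genes in every library, minus the mean of the 3 controls (control above, MS-275 below in each row). The treated libraries lie apart from the controls in the 4 pairs with B2m and in Actb to Tbp and Actb to Ywhaz, and overlap them in the other 4.

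The stability value M, used to rank qPCR references, is the mean over the other 4 genes of the SD of the log2 ratio across libraries, and a low value marks a steady gene. In the controls alone M was 0.121 for B2m, 0.125 for Ywhaz, 0.137 for Tbp, 0.216 for Ppia and 0.286 for Actb. Across all 6 libraries it was 0.455 for Ywhaz, 0.474 for Ppia, 0.504 for Actb, 0.543 for Tbp and 0.933 for B2m. B2m thus had the lowest value within the controls and the highest across the treatment. The control levels of B2m and Tbp lay closer together than counting error alone gives, so the order of the lowest control values is not firm. Within the MS-275-treated libraries M was between 0.209 for B2m and 0.346 for Ppia. Leaving B2m out, M across all 6 libraries was 0.274 for Ywhaz, 0.337 for Ppia, 0.354 for Tbp and 0.426 for Actb. Ywhaz had the lowest M across the 6 libraries although it was called lower with MS-275. M reads agreement with the other references, not a constant level. Tbp was called lower too and had a higher M, 0.543, and what set the order was not tested. With each library left out in turn, M lay between 0.426 and 0.467 for Ywhaz and between 0.441 and 0.573 for Tbp, and Ywhaz had the lowest M of the 5 genes in each of these 6 sets. B2m had the highest, between 0.915 and 0.946. The low end for Tbp, 0.441, came without MS-275 replicate 1.

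**Figure D4:**
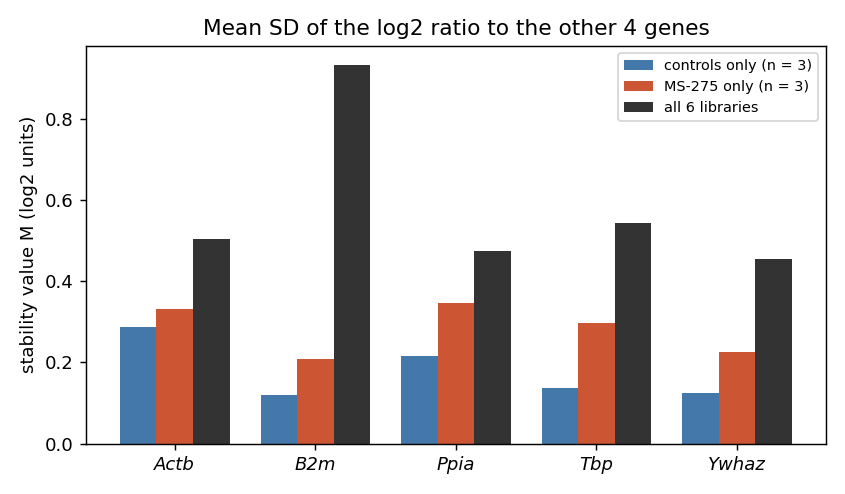
Stability value M of each reference gene in log2 units, over the 3 controls, the 3 MS-275-treated libraries and all 6 libraries. B2m goes from the lowest bar in the controls, 0.121, to the highest over all 6 libraries, 0.933.

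A reference that moves passes its change, with the sign turned, to each target read against it. A target with no change on the TMM scale would read 0.376 of its control level against B2m, 1.49-fold against Tbp, 1.33-fold against Ywhaz, 1.08-fold against Ppia and 0.925 of it against Actb. The geometric mean of all 5 genes differed little between the groups, by 0.07 on the log2 scale (SD 0.0485 in the controls and 0.114 with MS-275, n = 3 each), since the rise of B2m offset the falls of Tbp and Ywhaz. Without B2m, the geometric mean of the other 4 fell by 0.27 (SD 0.0527 and 0.108), and the groups did not overlap. Of the smaller sets, Actb with B2m rose by 0.76 and Actb with Ppia and Ywhaz differed by -0.15, both without overlap between the groups. Actb with Ywhaz differed by -0.14 and Actb with Ppia by -0.02, and the groups overlapped. The last pair joins the 2 genes that did not pass the test, so a small difference follows from how it was made up.

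Scaling the libraries by 1 reference in place of TMM moves every gene by about that reference's own change and adds that reference's spread between libraries, so the direction in which the calls over the whole table shift is fixed in advance, and the counts give its size. With TMM, edgeR called 4039 genes higher and 3966 lower at an adjusted p under 0.05, so that 50.5% of the calls were higher. Scaled by B2m, 658 genes were higher and 10735 lower, and 5.78% of the calls were higher. Scaled by Tbp, 94.1% of the calls were higher, with 7127 genes higher and 446 lower. Ywhaz gave 82.3%, with 6940 genes higher and 1495 lower. Ppia gave 73.4%, with 3289 genes higher and 1192 lower, both fewer than with TMM. Actb gave 44.4%, with 2616 genes higher and 3273 lower, and the geometric mean of all 5 gave 45.0%, with 3407 and 4158. The total of calls fell from 8005 with TMM to 5889 with Actb and 4481 with Ppia. Each reference was also read against the others. Tbp and Ywhaz kept their calls scaled by Actb, with log2 fold changes of -0.70 (adjusted p = 0.00586, edgeR) and -0.54 (adjusted p = 0.0232, edgeR). Both were also called lower scaled by B2m, but so were most tested genes, as that scaling fixes in advance, and this is no support. Scaled by Ppia neither was called. There the log2 fold change was -0.43 for Tbp (standard error 0.26, adjusted p = 0.196, edgeR) and -0.23 for Ywhaz (standard error 0.24, adjusted p = 0.497, edgeR). With TMM the log2 fold changes were -0.58 and -0.41, larger in size than with Ppia and smaller than with Actb. The standard errors with Ppia were larger than with TMM (0.14 and 0.07). Those scaled by Actb were larger as well (0.23 and 0.21), and there both calls held. Why the calls were lost with Ppia was not tested. Scaled by each other, Tbp was at -0.17 and Ywhaz at 0.22, and neither was called. A geometric mean holds the genes read against it and so takes up part of their own change. With that of all 5, Tbp was at -0.66 (adjusted p = 0.000536, edgeR) and Ywhaz at -0.48 (adjusted p = 0.000685, edgeR). With that of the 4 without B2m, Tbp was at -0.33 (adjusted p = 0.0527, edgeR) and Ywhaz at -0.14 (adjusted p = 0.244, edgeR). B2m was called higher under scaling by each of the other 4 and by either mean.

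**Figure D5:**
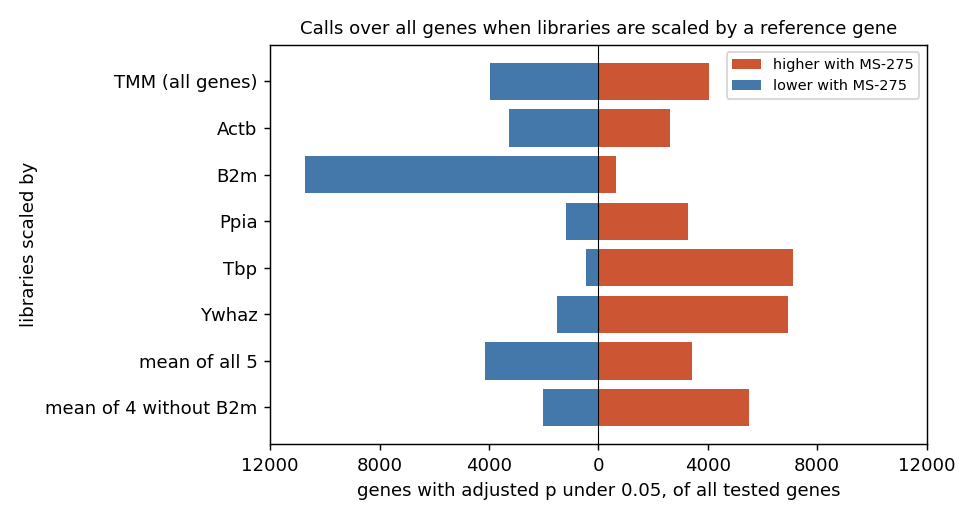
Number of genes called higher (right) or lower (left) with MS-275 at an adjusted p under 0.05, of 12596 tested, with libraries scaled by TMM, by the count of 1 reference gene, or by the geometric mean of several. Scaling by B2m gave 10735 lower calls, whereas scaling by Tbp or Ywhaz gave 7127 and 6940 higher calls.

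The spread of each reference across the 6 libraries was also set against that of other genes. Over all tested genes, 28.2% had a smaller SD of log2 CPM than Actb, 34.1% than Ywhaz, 38.2% than Ppia (SD 0.247), 60.5% than Tbp (0.384) and 88.0% than B2m. Actb, Ywhaz and Ppia thus varied less than most tested genes. Among the same 2558 genes averaging 100 CPM or more, 44.4% had a smaller SD of log2 CPM across the 6 libraries than Actb (SD 0.201), 51.2% a smaller one than Ywhaz (0.228) and 96.9% a smaller one than B2m (0.775). The 3 steadiest of these 2558 had an SD of 0.0154, 0.0226 and 0.0337, with log2 fold changes between -0.03 and 0.00. They were picked by this SD over both groups together, so small changes follow from the choice. The level pattern most like that of B2m was ENSRNOG00000006865, with 264 ± 8.32 CPM in the controls and 558 ± 40.5 CPM with MS-275 (SD, n = 3 each). Most like Ywhaz was ENSRNOG00000007946, with 49.9 ± 2.08 and 37.1 ± 0.681 CPM, and most like Tbp was ENSRNOG00000003014, with 50.9 ± 0.759 and 29.1 ± 8.41 CPM. Likeness was the correlation of log2 CPM over the 6 libraries, in which the difference between the groups has the largest part, and 160 genes of the 9918 searched came over 0.99 with B2m, 63 with Ywhaz and 14 with Tbp.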

How the data were processed

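RNA of 3 control and 3 MS-275-treated samples was sequenced. Per the labels and the paper's methods, the authors removed contaminating reads, aligned to Rnor_6.0 with STAR and deposited raw counts per Ensembl gene. Although featureCounts is named as the counter, each table closes with 5 summary lines as htseq-count writes them. They name no gene, held between 68.6% and 70.8% of a library's alignments and entered neither totals nor tests. The largest class, alignments on no listed gene, held between 60.2% and 61.9%. Where these come from was not tested. Strandedness is not given in the sources used here. A deposited table of the authors' own DESeq2 comparison was not used.

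With edgeR 4.0.16 (R 4.3.3), genes passing filterByExpr were scaled by TMM and tested by the robust quasi-likelihood test, with Benjamini-Hochberg adjustment over all 12596 genes. The standard error is the absolute log2 fold change over the square root of F. The fit was tested on simulated data. Depth was between 5230555 and 9172422 counts on genes, and counts without molecular identifiers carry more than counting error.

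The genes, lists and tests were chosen with earlier results of these data known. Names of the 5 genes are those given with their identifiers. Lists of other references, gene families and cell type markers need names for Ensembl identifiers, and RefSeq's table pairs 0 of them, so these were not run, and levels were not compared between genes, as no transcript lengths were used. Named genes were the 5, and for each the gene most like it by Pearson correlation, with identifiers printed for those that rose or fell. The motifs were picked after the sequence was seen. Alternatives were other scalings, DESeq2 1.42.0, other filters, the replicate number as a block and each library left out. Scaling by 4 genes without B2m, the fold changes of the references under scaling by a reference, and intervals with a library left out, were added after the data were seen, as was the share of all gene pairs whose ratios do not overlap.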

Additional observations from a re-analysis of the deposited data

How the results depend on the processing

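B2m, Tbp and Ywhaz kept their direction and an adjusted p under 0.05 in edgeR's quasi-likelihood test or DESeq2 in the 13 alternatives of scaling over all genes, test, filter, block and libraries, with log2 fold changes between 1.345 and 1.501, between -0.69 and -0.43 and between -0.48 and -0.32. Actb was between 0.0057 and 0.28 and passed in 1 of them, without control replicate 1 (0.28). Ppia was between -0.35 and 0.00 and turned sign, at 0.000519, without MS-275 replicate 2, and did not pass in any. The cause was not tested. With library sizes alone the interval of Ppia reached -0.53, past the limit of 0.5, and with upper-quartile scaling that of Ywhaz reached -0.47 and lay inside it. The limit of 0.25 left out Actb (0.36) and Ppia (-0.47), and a limit of 1 took in Tbp (-0.87) and Ywhaz (-0.56). Inclusion under another limit follows from the limit itself. With a library left out, the interval of Ppia reached between -0.70 and 0.39.

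Scaling by a reference moved the calls. At an adjusted p under 0.05, higher genes numbered 2616 with Actb, 658 with B2m, 7127 with Tbp and 6940 with Ywhaz, against 4039, and lower genes 10735 with B2m, 1192 with Ppia, 446 with Tbp, 1495 with Ywhaz and 2039 with the 4 genes without B2m, against 3966. With a log2 threshold of 1 as well, higher genes numbered 472, 3805 and 2897 with B2m, Tbp and Ywhaz, against 1754, and lower genes 8899, 419, 112, 188 and 310 with B2m, Ppia, Tbp, Ywhaz and the 4 without B2m, against 650. Without TMM 45.1% of the calls were higher and with the upper quartile 58.3%, and the median log2 fold change of all genes was -0.08 and 0.08. Each reference was also scaled by the others, an alternative added after the data were seen, and B2m stayed called higher. Tbp and Ywhaz kept their calls scaled by Actb and by all 5, a mean that holds both genes and B2m. With B2m they were called lower among 10735 genes, which that scaling fixes in advance, so this is no support. Scaled by B2m, Actb was at -1.28 and Ppia at -1.54, each called lower. Scaled by Ppia, Tbp (-0.43) and Ywhaz (-0.23) lost their calls. Scaled by Tbp, Actb (0.76) was called higher, and Ppia (0.47) and Ywhaz (0.22) turned sign without a call. Scaled by Ywhaz, Actb (0.53) was called higher, Ppia (0.29) turned sign and Tbp (-0.17) lost its call. Scaled by the 4 genes without B2m, Actb (0.39) was called higher, Ppia (0.14) turned sign, and Tbp (-0.33) and Ywhaz (-0.14) lost their calls. That mean holds Actb, Ppia, Tbp and Ywhaz themselves. Scaled by Ppia, the standard errors were 0.26 and 0.24 for Tbp and Ywhaz, against 0.14 and 0.07 with TMM. Scaled by Actb, where both calls held, the standard errors were 0.23 and 0.21. A shift of every gene by about the reference's own change follows from such a scaling. No further cause of the changed calls was tested.

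Deviations of same-numbered libraries correlated at 0.16, -0.02 and 0.12, with no other pairs compared, so pairing was not tested. With the replicate number as a block, Actb was at 0.12, B2m at 1.41, Ppia at -0.15, Tbp at -0.60 and Ywhaz at -0.41, with 4142 genes higher and 4113 lower. Ppia and Tbp had the fewest counts of the references, 77 and 89 in their lowest libraries. Counting error alone is 11.4% and 10.6% of the level there, and whether depth set their spread was not tested. Each group has 3 libraries, so no library was tested as an outlier.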
